A study of Mus musculus with 9 samples.

Results

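Glioma cells of the MADM mouse were set against astrocytes over every gene on the array, with 2 samples of each, 4 of the 9 samples of a study of a mouse glioma model and normal brain. MADM, mosaic analysis with double markers, uses Cre to exchange arms of a chromosome pair, which leaves a few marked cells with a mutation on both copies. The glioma cells came from brain tumours of mice on the MADM background, and their labels give no further genotype, passage or age. The astrocytes, the star-shaped support cells of the brain, were normal wild-type cells from the brain of C57BL/6J mice, also with no age given. The question the comparison addresses is how the tumour cells differ from a normal glial cell type. Total RNA of each sample was labelled with Cy3 and hybridised to 1 single-colour 60-mer oligonucleotide array with 62976 spots. Neural stem cells of the same mouse strain, on 2 further arrays, entered only the estimate of the spread between replicate arrays. Nothing in the labels says that the 2 samples of a group were separate cultures or animals, so the p-values rest on the spread among these few samples alone, which may be a technical one. Strain background and tumour origin differed together between the groups, and their effects cannot be told apart.

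Astrocytes take up glutamate and potassium around synapses, feed neurons and, when reactive, express complement, antioxidant and matrix genes. Gliomas of this kind of mouse model have been described as resembling oligodendrocyte precursors, dividing glial cells that carry the proteoglycan encoded by Cspg4 and receive synapses from neurons. Each value below is a level on the log2 scale relative to the 75th percentile of its own array, so 0 is the level of a fairly bright probe and -5 to -8 is near background. A difference is the glioma mean minus the astrocyte mean, and calling a gene took an adjusted p under 0.05 together with a 2-fold change or more. Between 60.1% and 65.2% of the spots of the 4 arrays were well above background, no spot was saturated, and all arrays lay on 1 slide and were scanned once. The small number of arrays limits the precision.

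The labels were first set against marker lists. Oligodendrocyte precursor markers averaged 5.29 and 4.34 on the glioma arrays and -0.30 and -0.96 on the astrocyte arrays, with 7 of 10 called higher. Among these 10, Matn4 lay at 5.08 and -1.42 on the glioma arrays. Astrocyte markers averaged -1.16 and -0.85 on the glioma arrays and 4.01 and 2.86 on the astrocyte arrays, with 6 of 12 called lower. Over all tested genes 10.4% were called higher and 10.2% lower, and the marker counts here are to be read beside these shares. The astrocyte samples also held transcripts of other cells. Microglia and macrophage markers averaged -4.25 and -3.89 on the glioma arrays and 2.90 and 3.40 on the astrocyte arrays, and 14 of 15 were called lower in the glioma cells. Markers of ependymal cells, the ciliated lining of the ventricles, averaged -3.93 and -3.91 on the glioma arrays and 1.92 and 0.47 on the astrocyte arrays, with 6 of 6 called lower. Fibroblast and meningeal markers averaged -3.51 and -4.63 on the glioma arrays and 1.17 and 5.24 on the astrocyte arrays, so the 2 astrocyte arrays differed by over 4 log2 units there. In samples of many cells, fewer cells of a type and less RNA per cell cannot be told apart. Trp53, the tumour suppressor, lay at -1.29 and -1.96 on the glioma arrays and -1.84 and -0.74 on the astrocyte arrays, a log2 difference of -0.33 (SE 0.49, adjusted p = 0.651). Nf1, which restrains RAS signalling, lay at 1.22 and 1.07 on the glioma arrays and 1.27 and 0.77 on the astrocyte arrays, a log2 difference of 0.13 (SE 0.30, adjusted p = 0.786). Neither passed the test, and since the labels do not say that these cells lack either gene or where the probes lie in it, these values check nothing. The level of Xist, the RNA of the inactive X chromosome, was 0.29 and 2.15 on the glioma arrays and 1.31 and -0.86 on the astrocyte arrays, a difference that did not pass the test (adjusted p = 0.475).

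Of 24215 genes and transcripts tested, 5010 were called (20.7%): 2529 were higher in the glioma cells (10.4%) and 2481 were lower (10.2%). At an unadjusted p under 0.05 there were 9562. The called falls were deeper than the called rises, with a median of -3.26 against 2.31 on the log2 scale, and 951 falls against 517 rises were of at least 16-fold. In 817 of the falls the probe was not well above background on either glioma array, and in 358 of the rises on neither astrocyte array. The groups did not overlap in 70.4% of all tested genes, so that a gap between 2 pairs of arrays is common here. Many genes below were named for the size of this gap, so a wide gap in them follows from the choice. The number of calls was 2333 with glioma array 1 left out and 2128 with glioma array 2 left out. It was 2073 and 2080 when astrocyte array 1 or 2 was left out. Genes still called with each of these 4 arrays left out numbered 1301 (5.37%), of which 497 were higher and 804 lower, and below these are said to have kept their call. Of all calls, 50.5% were higher in the glioma cells. On the deposited values with no scaling between arrays, the median difference over all genes was -0.30 in place of 0.18, and 30.0% of the calls were higher.

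**Figure D1:**
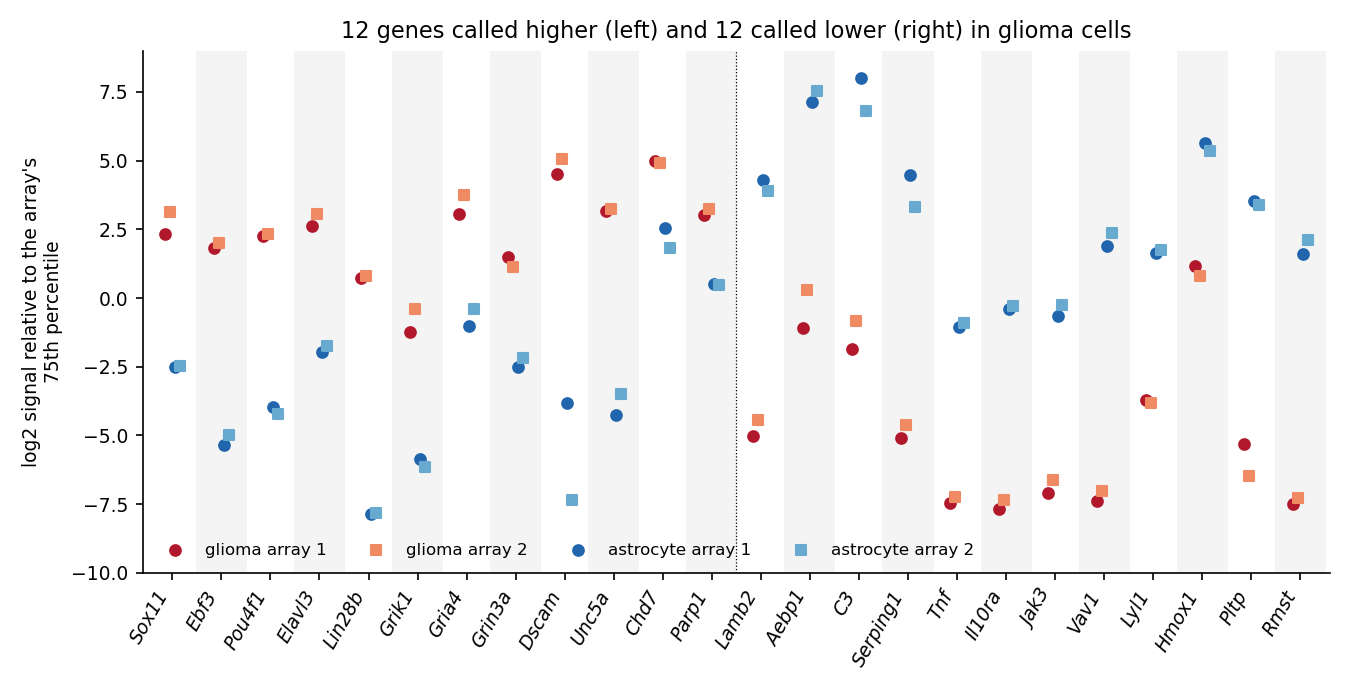
Levels of 24 genes that kept their call, 12 higher and 12 lower in the glioma cells, on the log2 scale relative to each array's 75th percentile. Each point is 1 array: red and orange are the 2 glioma arrays, dark and light blue the 2 astrocyte arrays. In each of the 24 genes both glioma points lie on the same side of both astrocyte points, as they do in 70.4% of all tested genes. For Tnf and Il10ra both glioma points lie below -7, near background.

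Transcription factors and RNA-binding proteins of developing neural cells were among the genes higher in the glioma cells. Sox11, a SOX factor of neural progenitors and young neurons, lay at 2.32 and 3.13 on the glioma arrays and -2.51 and -2.46 on the astrocyte arrays. Its difference was 5.21 (adjusted p = 0.00400). Ebf3, a helix-loop-helix factor of early neurons, lay at 1.81 and 2.01 on the glioma arrays and -5.34 and -4.97 on the astrocyte arrays, a log2 difference of 7.06 (SE 0.39, adjusted p = 0.00231). Pou4f1, known from sensory neurons, lay at 2.27 and 2.33 on the glioma arrays and -3.98 and -4.21 on the astrocyte arrays, a log2 difference of 6.39 (SE 0.27, adjusted p = 0.00220). For each of these 3 factors the pair of glioma arrays agreed to within 1 log2 unit and lay far above both astrocyte arrays. Ebf3 and Pou4f1 were named for that gap. Lin28b, which blocks maturation of let-7 microRNAs in embryonic cells, lay at 0.72 and 0.82 on the glioma arrays and -7.85 and -7.83 on the astrocyte arrays and was not well above background on either astrocyte array. It was at least 89.6-fold higher (adjusted p = 0.00461), where the bound sets the glioma mean against, on each astrocyte array, the higher of its own signal and the lowest signal counted as well above background. The neuronal Hu proteins, which bind AU-rich RNA, followed: Elavl3 lay at 2.64 and 3.04 on the glioma arrays and -1.95 and -1.73 on the astrocyte arrays, a log2 difference of 4.68 (SE 0.43, adjusted p = 0.00398), and Elavl2 at -0.20 and -0.45 on the glioma arrays and -4.68 and -6.16 on the astrocyte arrays, a log2 difference of 5.09 (SE 0.52, adjusted p = 0.00529). Of 25 RNA-binding proteins of stem cells and neurons 9 were called higher (36%) and 1 lower, with a median difference of 0.98 against 0.18 over all tested genes. Of the 9, 3 kept their call. Elavl2 was well above background on 1 astrocyte array. The gene called lower was Srrm4, a splicing activator of neurons, at -6.87 and -5.90 against -1.95 and -1.60, at least 11.4-fold lower (adjusted p = 0.00563). Of 22 stem and growth transcription factors, 6 were called higher and 2 lower, shares of 27.3% and 9.09% against 10.4% and 10.2% of all tested genes, with a median of 0.15.

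Some receptors and adhesion molecules of synapses were higher too. Of 19 ionotropic glutamate receptor genes, 5 were called higher, 4 of which kept the call, 1 was called lower and the others were not called, with a median of 0.55. The shares were 26.3% higher and 5.26% lower, against 10.4% and 10.2% of all tested genes. Gria4, an AMPA receptor subunit, lay at 3.06 and 3.75 on the glioma arrays and -1.01 and -0.39 on the astrocyte arrays, a log2 difference of 4.10 (SE 0.39, adjusted p = 0.00446). Grik3, a kainate receptor subunit, lay at 3.40 and 3.21 on the glioma arrays and -1.22 and -2.40 on the astrocyte arrays, a log2 difference of 5.12 (SE 0.61, adjusted p = 0.00755). Grin3a, an NMDA receptor subunit that lowers calcium entry, lay at 1.5 and 1.11 on the glioma arrays and -2.51 and -2.17 on the astrocyte arrays, a log2 difference of 3.65 (SE 0.37, adjusted p = 0.00525). Members of all 3 classes of glutamate-gated channel were thus called. Grik1, another kainate subunit, was at least 29.9-fold higher (adjusted p = 0.00310), and Neto1, an auxiliary subunit of such receptors, at least 683-fold (adjusted p = 0.00296). Neither was well above background on an astrocyte array. Cacng5, an auxiliary AMPA receptor subunit well above background on 1 glioma array, was the one called lower, at -5.71 and -4.14 against 3.25 and -0.65, a log2 difference of -6.23 (SE 1.32, adjusted p = 0.0321). Its call was lost in fits that left out 1 array, where the adjusted p reached 0.118.

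Among 21 neural cell adhesion molecules 4 were called higher and none lower (median 0.80), or 19% against 10.4% of all tested genes. Dscam, a self-avoidance molecule of neurites, lay at 4.53 and 5.06 on the glioma arrays and -3.83 and -7.34 on the astrocyte arrays, a log2 difference of 10.37 (SE 1.23, adjusted p = 0.00745). Both glioma arrays exceeded both astrocyte arrays by more than 8 log2 units. Unc5a, a netrin receptor, lay at 3.18 and 3.24 on the glioma arrays and -4.24 and -3.48 on the astrocyte arrays, a log2 difference of 7.07 (SE 0.35, adjusted p = 0.00226), and Dlgap3, a scaffold of the postsynaptic density, at 2.74 and 3.06 on the glioma arrays and -3.15 and -4.10 on the astrocyte arrays, a log2 difference of 6.53 (SE 0.53, adjusted p = 0.00328). Dcx, the microtubule protein of migrating young neurons, was at least 210-fold higher (adjusted p = 0.00918), and Pcdh15, a protocadherin known from inner ear hair cells and also from oligodendrocyte precursors, at least 306-fold (adjusted p = 0.00275). Of 17 sodium and calcium channel genes 2 were called higher and none lower, a share of 11.8% that is near the 10.4% of all tested genes. Scn1a, a pore-forming sodium channel subunit, was at least 20.8-fold higher (adjusted p = 0.00511). The neuron markers as a list were split, with a median of -0.28 over 7 members. Rbfox3, the NeuN antigen, gave 4.54 (adjusted p = 0.0325) and Map2, of dendrites, 2.22 (adjusted p = 0.0164), and with 1 array left out their adjusted p reached 0.121 and 0.0771. Stmn2, of growing axons, was called lower, -9.14 (adjusted p = 0.00918). Dscam and Rbfox3 were well above background on 1 astrocyte array, and Stmn2 on 1 glioma array, so the size of these 3 differences is less certain.

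Surface proteoglycans and glycolipid enzymes of the oligodendrocyte lineage formed a further group. Of 15 chondroitin sulfate proteoglycan genes 3 were called higher and none lower (median 0.79), or 20% against 10.4% of all tested genes. Cspg4, the NG2 proteoglycan, lay at 5.74 and 4.68 on the glioma arrays and -1.79 and -0.0019 on the astrocyte arrays, a log2 difference of 6.10 (SE 0.69, adjusted p = 0.00660). Chst3, which sulfates chondroitin, lay at 3.17 and 2.53 on the glioma arrays and -0.91 and -1.63 on the astrocyte arrays, a log2 difference of 4.13 (SE 0.46, adjusted p = 0.00656). The sphingolipid and galactolipid genes moved both ways, with 5 of 21 higher (23.8%) and 4 lower (19%). Ugt8a, which makes galactosylceramide of myelin, lay at 0.16 and 1.21 on the glioma arrays and -5.43 and -6.60 on the astrocyte arrays, a log2 difference of 6.70 (SE 0.79, adjusted p = 0.00745). St8sia3, a sialyltransferase of gangliosides, was at least 69.1-fold higher (adjusted p = 0.00292), while St8sia2, which makes polysialic acid, lay at -3.98 and -5.32 against -0.57 and -0.60, a log2 difference of -4.06 (SE 0.49, adjusted p = 0.00787). Gjc3, a connexin of oligodendrocytes, lay at 3.85 and 3.00 on the glioma arrays and -3.52 and -5.58 on the astrocyte arrays, a log2 difference of 7.98 (SE 0.74, adjusted p = 0.00410). Bcas1, known from newly forming oligodendrocytes, lay at 6.13 and 5.93 on the glioma arrays and -1.53 and -2.61 on the astrocyte arrays with a log2 difference of 8.10 (SE 1.24, adjusted p = 0.0140), and in fits that left out 1 array its adjusted p reached 0.0690. None of 6 mature oligodendrocyte markers was called, with a median of 1.56. Gjc3 and Ugt8a were well above background on 1 of the 2 astrocyte arrays, and St8sia2 on 1 glioma array.

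Many cell division genes were higher, though with wide standard errors. These errors pool the spread of the glioma, astrocyte and neural stem cell arrays. For Birc5, Cdca8, Kif15 and Mcm5 below, the glioma pair and the astrocyte pair each lay within 1 log2 unit. Their wide errors thus came mostly from the neural stem cell pair. Of 26 genes of the spindle and cytokinesis 18 were called higher, of 26 kinetochore genes 13, of 22 recombination repair genes 6 and of 28 replication genes 4, against 10.4% of all tested genes, and none was called lower. Their medians were 3.96, 4.04, 3.48 and 3.32, and all members of the 4 lists had a positive difference. None of these calls was kept with each array left out. Birc5, which encodes survivin of the chromosomal passenger complex, lay at 6.34 and 6.11 on the glioma arrays and 1.07 and 1.83 on the astrocyte arrays, a log2 difference of 4.77 (SE 1.01, adjusted p = 0.0320). Cdca8, of the same complex, lay at 5.13 and 5.33 against -0.09 and 0.54, a log2 difference of 5.0 (SE 1.01, adjusted p = 0.0283). Kif15, a spindle motor, lay at 0.17 and 0.15 against -5.61 and -5.15, a log2 difference of 5.54 (SE 0.95, adjusted p = 0.0185), and Mcm5, a subunit of the replicative helicase, at 4.31 and 4.20 against -0.62 and -0.53, a log2 difference of 4.83 (SE 1.22, adjusted p = 0.0484). The glioma pair agreed closely in all of these, and both glioma arrays lay above both astrocyte arrays. Kif15 was well above background on 1 astrocyte array. With 1 of the 4 arrays left out, the adjusted p of Birc5 reached 0.130, that of Kif15 0.0852 and that of Mcm5 0.160.

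Lists of growth genes outside the division machinery had smaller medians. Of 21 ribosome biogenesis genes 8 were called higher (median 1.43), of 21 nucleotide synthesis genes 4 (median 1.54) and of 24 cytosolic ribosomal protein genes 2 (median 0.91). These are shares of 38.1%, 19% and 8.33%, against 10.4% of all tested genes, so the share of ribosomal protein genes called was below that of genes in general. All 24 ribosomal protein genes nevertheless had a positive difference, and their median of 0.91 lay above the 0.18 of all tested genes. None of the calls of these lists was kept with each array left out. No respiratory chain gene of 24 was called, with a median of 0.40. In limma's fit none of these 4 lists had a member called lower. Nop56, of the box C/D ribonucleoproteins that modify ribosomal RNA, lay at 5.37 and 5.19 against 3.19 and 2.81, a log2 difference of 2.28 (SE 0.47, adjusted p = 0.0298). The ribosomal protein gene Rpl8 lay at 8.01 and 8.05 against 6.81 and 6.78, a log2 difference of 1.23 (SE 0.29, adjusted p = 0.0417). Without 1 array the adjusted p of these genes reached 0.119 and 0.156. Among 24 chromatin remodeller and high mobility group genes 7 were called higher (29.2%) and none lower (median 1.05), and 2 of the 7 kept their call. Chd7, a remodeller of neural progenitors and oligodendrocyte precursors, lay at 4.99 and 4.93 on the glioma arrays and 2.54 and 1.82 on the astrocyte arrays, a log2 difference of 2.78 (SE 0.33, adjusted p = 0.00761), and kept its call. So did Parp1, the sensor of DNA breaks, at 3.03 and 3.23 on the glioma arrays and 0.51 and 0.47 on the astrocyte arrays, a log2 difference of 2.64 (SE 0.27, adjusted p = 0.00525). Lmnb1, lamin B1 of the nuclear envelope, belongs to the list of cell cycle inhibitors and senescence and kept its call too. It lay at 4.65 and 4.96 on the glioma arrays and 0.10 and -0.14 on the astrocyte arrays, a log2 difference of 4.83 (SE 0.61, adjusted p = 0.00843). Core histone genes were split, with 5 of 19 higher (26.3%) and 3 lower (15.8%).

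Promoters of division genes carry short elements that are read by the cell cycle machinery, and a few are shown because many genes of these lists were called in one direction. Promoter sequences from RefSeq (GRCm38.p6) matched 13006 of the tested genes by symbol, and for each gene the first listed start was used. In the 250 bases before the start, on either strand, 3 motifs were looked for here: TTTGAA, the cell cycle genes homology region (CHR), TTTNNCGC, a core of E2F sites, and CCAAT. The CHR letters stood in 7 of 22 promoters of spindle genes, or 31.8%, against 11.3% of all 13006. The other division lists had them in 4 of 23 replication, 3 of 25 kinetochore and 1 of 17 recombination repair promoters. A list outside division came close to the spindle share, the apoptosis regulators with 5 of 17. The core histone genes, with 5 of 15 or 33.3%, and the fibroblast markers, with 2 of 4, exceeded it. The E2F letters stood in 8 of 23 promoters of replication genes, or 34.8%, against 6.36%, and in 4 of 17 of recombination repair, 3 of 22 of spindle and 3 of 25 of kinetochore genes. Lists outside division reached similar shares to these last 3, with 4 of 16 ribosome biogenesis, 3 of 14 lipoprotein and sterol efflux and 1 of 4 ependymal marker promoters. CCAAT stood in 65.2% of the replication, 63.6% of the spindle, 64.0% of the kinetochore and 47.1% of the recombination repair promoters, against 36.2% of all. Higher shares were found for the core histone genes (80%) and the serine, glycine and one-carbon genes (76.5%). Over all genes called higher the CHR share was 12% and the E2F share 8.33%. A match is a description of letters and was not tested as a site. Cdc20, the activator of the anaphase-promoting complex, and Kif11, Kif15 and Espl1 (spindle motors and separase) had the CHR within 30 bases of the start, and Mcm5 had 2 overlapping E2F matches 149 bases before it. The stretches below end at the base before the start, or 25 bases beyond the match for Mcm5, are written 5′ to 3′ along the gene, and have in capitals the match each is shown for. Matches of the other motifs searched, such as CCAAT in Cdc20, stay in lower case. The genes shown were chosen after their values were seen, for a match near the start.
Cdc20, - strand, chr4:118437344-118437386: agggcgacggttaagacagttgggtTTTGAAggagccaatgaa
Kif11, + strand, chr19:37376338-37376381: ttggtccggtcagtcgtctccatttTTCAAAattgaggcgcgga
Espl1, + strand, chr15:102296241-102296292: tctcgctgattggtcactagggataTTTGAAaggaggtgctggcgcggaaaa
Kif15, + strand, chr9:122951037-122951080: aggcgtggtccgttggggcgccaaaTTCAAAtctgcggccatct
Mcm5, + strand, chr8:75109335-75109392: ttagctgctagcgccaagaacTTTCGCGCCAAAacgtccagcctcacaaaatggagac
The matches of Cdc20 and Espl1 read TTTGAA along the gene and those of Kif11 and Kif15 read its reverse complement. Kif15 had another CHR match farther from the start. Cdc20 lay at 5.62 and 5.75 against 0.56 and 2.10, a log2 difference of 4.35 (SE 1.01, adjusted p = 0.0396), and Espl1 at 1.99 and 1.24 against -3.81 and -2.94, a log2 difference of 4.99 (SE 1.13, adjusted p = 0.0375). For Kif11 the levels were 0.24 and 0.47 against -3.34 and -3.47, a log2 difference of 3.76 (SE 0.88, adjusted p = 0.0407). In all 3 both glioma arrays lay above both astrocyte arrays, and the calls were lost with 1 array left out, where the adjusted p reached 0.155, 0.146 and 0.139.

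**Figure D2:**
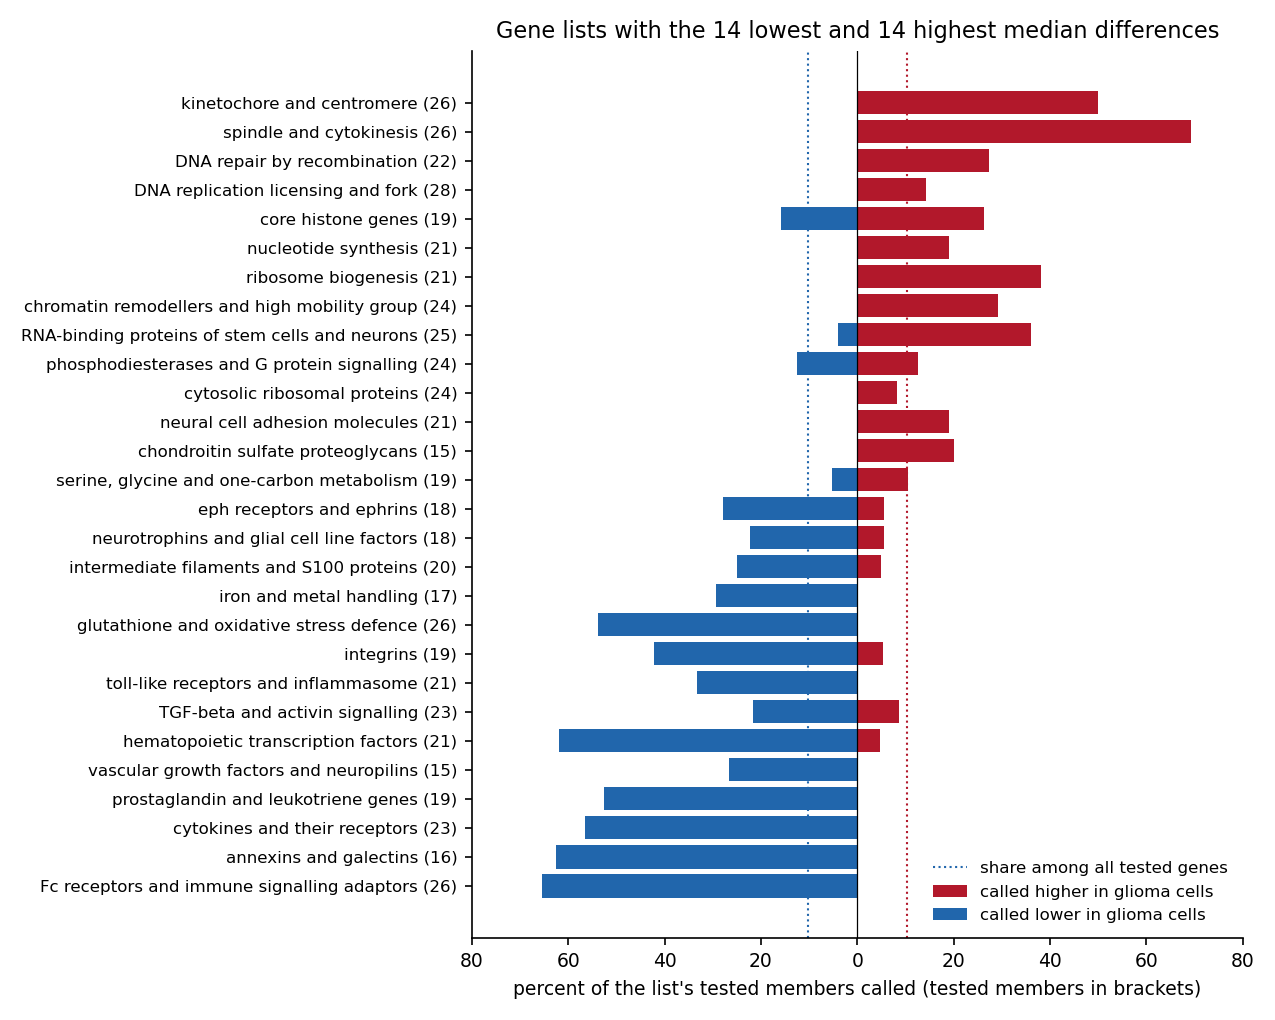
Share of the tested members of each gene list that was called higher (red, to the right) or lower (blue, to the left) in the glioma cells, for the 28 functional lists with the lowest and highest median differences. Dotted lines mark the shares over all tested genes, 10.4% higher and 10.2% lower. The spindle list reaches 69.2% higher and the Fc receptor and adaptor list 65.4% lower, while the cytosolic ribosomal proteins lie below the dotted line at 8.33%.

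Immune signalling genes made up many of the deepest falls. Of 26 Fc receptor and immune adaptor genes 17 were called lower, of 23 cytokines and cytokine receptors 13, of 21 blood cell transcription factors 13, of 21 Toll-like receptor and inflammasome genes 7 and of 19 NF-kB pathway genes 6, against 10.2% of all tested genes. The only call in the other direction was Bach2, a repressor known from lymphocytes, 2.09 (adjusted p = 0.0136), and with 1 array left out its adjusted p reached 0.0696. Vav1, a guanine nucleotide exchange factor of blood cells, lay at -7.39 and -7.03 on the glioma arrays and 1.90 and 2.36 on the astrocyte arrays and was at least 171-fold lower (adjusted p = 0.00316). Inpp5d, the SHIP1 phosphatase, was at least 91.1-fold lower (adjusted p = 0.00366). Tnf lay at -7.45 and -7.23 on the glioma arrays and -1.05 and -0.90 on the astrocyte arrays, at least 19.8-fold lower (adjusted p = 0.00220), and Il10ra, the interleukin-10 receptor, at -7.66 and -7.36 on the glioma arrays and -0.39 and -0.28 on the astrocyte arrays, at least 30.9-fold lower (adjusted p = 0.00248). None of these 4 genes was well above background on a glioma array, whereas both astrocyte arrays showed them at similar levels. Lyl1, a helix-loop-helix factor of blood cells, lay at -3.70 and -3.81 on the glioma arrays and 1.65 and 1.75 on the astrocyte arrays, a log2 difference of -5.46 (SE 0.36, adjusted p = 0.00258), and Runx1, well above background on 1 glioma array, at -4.49 and -5.63 against -0.33 and -0.44, a log2 difference of -4.68 (SE 0.45, adjusted p = 0.00454). Microglia and macrophage markers moved with these lists, averaging -4.25 and -3.89 on the glioma and 2.90 and 3.40 on the astrocyte arrays. Their part in the result was not tested.

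Not all of these genes are restricted to blood cells. Il11ra1, a cytokine receptor subunit of many tissues, lay at -0.74 and -1.0 on the glioma arrays and 4.98 and 4.87 on the astrocyte arrays, a log2 difference of -5.80 (SE 0.32, adjusted p = 0.00231), and Fas, the death receptor, was at least 501-fold lower (adjusted p = 0.00220). Jak3, by contrast a kinase known chiefly from blood cells, was at least 28.7-fold lower (adjusted p = 0.00226). Bcl3, a nuclear partner of NF-kB, lay at -5.29 and -4.98 on the glioma arrays and 1.49 and 1.89 on the astrocyte arrays, a log2 difference of -6.82 (SE 0.83, adjusted p = 0.00794). Socs3, the feedback inhibitor of cytokine signalling, lay at 1.51 and 1.02 against 5.08 and 3.90, a log2 difference of -3.23 (SE 0.46, adjusted p = 0.0118), and in fits that left out 1 array its adjusted p reached 0.0568. C3, the central complement component, lay at -1.85 and -0.84 on the glioma arrays and 8.02 and 6.8 on the astrocyte arrays, a log2 difference of -8.76 (SE 0.55, adjusted p = 0.00251). Serping1, the inhibitor of C1 and a gene of reactive astrocytes, lay at -5.08 and -4.62 on the glioma arrays and 4.48 and 3.31 on the astrocyte arrays, a log2 difference of -8.74 (SE 0.55, adjusted p = 0.00249). Both complement genes were separated by more than 7 log2 units between the nearest arrays of the groups, a gap for which they were named.

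The motif of PU.1, the myeloid transcription factor, was searched as GAGGAAGT. It stood in 3 of 22 promoters of Fc receptor and adaptor genes, or 13.6%, against 2.38% of all 13006 promoters, 3.21% of those of genes called lower and 1.36% of those called higher. The other immune lists differed: it stood in 3 of 17 Toll-like receptor and inflammasome promoters, but in 0 of 15 of blood cell transcription factors, 0 of 18 of cytokines and receptors, 0 of 14 of the NF-kB and 0 of 15 of the JAK-STAT list. Among other lists it stood in 2 of 13 integrin, 2 of 15 prostaglandin and leukotriene and 1 of 4 ependymal marker promoters. The core of interferon-stimulated response elements, GAAANNGAA, stood in 8.77% of promoters of genes called lower, 5.53% of those called higher and 6.26% of all. For AP-1 (TGANTCA) the shares were 7.20%, 4.24% and 4.82%, and for the sterol element TCACNCCAC 1.21%, 0.681% and 0.976%. These shares are descriptions and were not tested. The 3 promoters of the list with the PU.1 letters have them within 25 bases of the start, and these stretches, which end at the base before it, are shown for their like position.
Vav1, + strand, chr17:57279064-57279099: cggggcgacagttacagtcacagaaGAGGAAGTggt
Inpp5d, + strand, chr1:87620267-87620311: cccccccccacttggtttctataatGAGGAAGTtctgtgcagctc
Fcgr4, + strand, chr1:171018877-171018925: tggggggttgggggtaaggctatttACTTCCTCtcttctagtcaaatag
In Vav1 and Inpp5d the letters read GAGGAAGT along the gene and in Fcgr4 they read its reverse complement. Fcgr4, a low-affinity receptor for immunoglobulin G, lay at -4.89 and -4.40 against -2.0 and -1.17, a log2 difference of -3.06 (SE 0.46, adjusted p = 0.0131), and its adjusted p reached 0.0585 with 1 array left out. Vav1 and Inpp5d kept their calls.

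Genes of the matrix, the membrane skeleton and adhesion were lower as well. Lamb2, a laminin chain of basement membranes, lay at -5.00 and -4.43 on the glioma arrays and 4.31 and 3.91 on the astrocyte arrays, a log2 difference of -8.83 (SE 0.38, adjusted p = 0.00220). Aebp1, a matrix protein of fibrous tissue, lay at -1.09 and 0.30 on the glioma arrays and 7.12 and 7.55 on the astrocyte arrays, a log2 difference of -7.73 (SE 0.58, adjusted p = 0.00292). Col4a6, a basement membrane collagen, was at least 534-fold lower (adjusted p = 0.00367). Ahnak, a very large scaffold protein under the membrane, lay at -2.07 and -2.66 on the glioma arrays and 5.21 and 5.38 on the astrocyte arrays, a log2 difference of -7.66 (SE 0.47, adjusted p = 0.00248), and Cavin3, a coat protein of caveolae, at -5.23 and -4.31 on the glioma arrays and 3.98 and 3.12 on the astrocyte arrays, a log2 difference of -8.32 (SE 0.50, adjusted p = 0.00248). Of 16 annexin and galectin genes 10 were called lower (62.5% against 10.2% of all tested genes) and none higher (median -3.81), among them Lgals3 at -2.13 and -2.87 against 4.98 and 6.42, a log2 difference of -8.20 (SE 0.59, adjusted p = 0.00279), and Anxa4 at -5.58 and -4.31 against 2.11 and 2.54, a log2 difference of -7.26 (SE 0.52, adjusted p = 0.00279). Integrins gave 8 called lower (42.1%) and 1 higher of 19, and 2 of the 8 kept their call. Itga3, the laminin-binding alpha 3 chain, lay at -4.12 and -5.19 against 1.15 and 0.85, a log2 difference of -5.66 (SE 0.49, adjusted p = 0.00363). The one called higher was Itga9, 2.53 (adjusted p = 0.0446), a call lost with 1 array left out, where the adjusted p reached 0.163. Of 18 heparan sulfate proteoglycan genes 4 were called lower (22.2%) and none higher, in contrast with the chondroitin sulfate list, where 3 were called higher and none lower. That difference between the 2 lists was not tested. Fibroblast markers averaged 1.17 on astrocyte array 1 and 5.24 on array 2, against -3.51 and -4.63 on the glioma arrays, and their part in these falls was not tested. The 2 astrocyte arrays lay within 1 log2 unit of each other for Lamb2, Ahnak, Aebp1, Cavin3, Anxa4 and Itga3. They lay farther apart for Col4a6, at 4.64 and 2.91, and for Lgals3, at 4.98 and 6.42. Anxa4 and Itga3 were well above background on 1 glioma array.

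Several metabolic groups stood lower. Of 26 glutathione and oxidative stress genes 14 were called lower and none higher (median -2.05), or 53.8% against 10.2% of all tested genes. Of the 14, 4 kept their call. Hmox1, heme oxygenase 1, lay at 1.17 and 0.81 on the glioma arrays and 5.64 and 5.37 on the astrocyte arrays, a log2 difference of -4.51 (SE 0.37, adjusted p = 0.00336). Gpx8, a peroxidase of the endoplasmic reticulum, lay at 0.41 and -0.62 against 5.34 and 4.87, a log2 difference of -5.21 (SE 0.43, adjusted p = 0.00337), and Gsta4, which conjugates lipid aldehydes to glutathione, at -2.36 and -2.71 against 2.76 and 3.13, a log2 difference of -5.48 (SE 0.65, adjusted p = 0.00745). Of 19 prostaglandin and leukotriene genes 10 were called lower (52.6%) and none higher (median -3.59), and 4 of the 10 kept their call. Alox5, which makes leukotrienes, was at least 33.3-fold lower (adjusted p = 0.00385), and its activating protein Alox5ap lay at -3.38 and -3.48 against 1.43 and 1.31, a log2 difference of -4.80 (SE 0.25, adjusted p = 0.00231). Both genes of the pair are known from myeloid cells, whose markers fell too. Pltp, the phospholipid transfer protein, well above background on 1 glioma array, lay at -5.31 and -6.46 on the glioma arrays and 3.52 and 3.39 on the astrocyte arrays, a log2 difference of -9.34 (SE 0.46, adjusted p = 0.00226), and Nr1h3, the LXR alpha receptor that drives sterol efflux, at -3.46 and -3.20 against 1.64 and 1.43, a log2 difference of -4.87 (SE 0.43, adjusted p = 0.00367). Clu, clusterin, an abundant secreted protein of astrocytes, lay at 0.44 and 1.22 against 8.22 and 7.16, a log2 difference of -6.86 (SE 1.48, adjusted p = 0.0337), and its call was lost in fits that left out 1 array, with an adjusted p of up to 0.134.

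Lysosomal enzymes shifted by less, with 9 of 25 called lower (36% against 10.2% of all tested genes), none higher and a median of -1.21. Psap, the precursor of the saposins, lay at 3.88 and 3.76 against 5.78 and 5.48, a log2 difference of -1.81 (SE 0.34, adjusted p = 0.0232). None of the 9 kept its call, and that of Psap reached an adjusted p of 0.104 with 1 array left out. Of 17 iron and metal genes 5 were lower (29.4%). Slc11a1, the NRAMP1 transporter of phagosomes, lay at -4.29 and -4.78 against 0.97 and 0.71, a log2 difference of -5.38 (SE 0.56, adjusted p = 0.00538). Of 17 retinoid genes 4 were called lower (23.5%) and none higher (median -0.92), and 2 of these were enzymes that make retinoic acid. Aldh1a1 lay at -1.16 and -3.19 on the glioma arrays and 4.21 and 5.13 on the astrocyte arrays, a log2 difference of -6.85 (SE 0.73, adjusted p = 0.00582), and Aldh1a2 at -1.98 and -3.64 on the glioma arrays and 2.22 and 2.22 on the astrocyte arrays, a log2 difference of -5.03 (SE 0.59, adjusted p = 0.00724). Rdh10, which makes the retinal they use, lay at -1.50 and -1.71 against 1.87 and 1.28, a log2 difference of -3.18 (SE 0.41, adjusted p = 0.00872). In each of these 3 the lower astrocyte array exceeded the higher glioma array by over 2 log2 units.

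Secreted factors and guidance molecules were lower in smaller numbers. Of 18 neurotrophic factor genes 4 were called lower (22.2% against 10.2% of all tested genes) and 1 higher. Cntf, ciliary neurotrophic factor, which astrocytes make, lay at -0.59 and -0.23 on the glioma arrays and 5.82 and 4.69 on the astrocyte arrays, a log2 difference of -5.66 (SE 0.57, adjusted p = 0.00519). Ntf3 was at least 7.21-fold lower (adjusted p = 0.00249), while one of its receptors, Ntrk3, was called higher, 3.26 (adjusted p = 0.0131), a call lost with 1 array left out (adjusted p up to 0.0609). In the TGF-beta list 5 of 23 were lower (21.7%) and 2 higher (median -2.47), with Tgfbi, a matrix protein induced by TGF-beta, at -2.24 and -2.76 against 1.65 and 3.31, a log2 difference of -4.97 (SE 0.59, adjusted p = 0.00746), and Fstl1 at 1.52 and 1.24 against 5.09 and 5.89, a log2 difference of -4.11 (SE 0.36, adjusted p = 0.00373). Eph receptors and ephrins gave 5 of 18 lower (27.8%) and 1 higher. Of 19 named long non-coding RNAs 6 were called lower (31.6%) and none higher. Rmst, a long non-coding RNA of the neural tube and midbrain, lay at -7.49 and -7.27 on the glioma arrays and 1.59 and 2.10 on the astrocyte arrays and was at least 140-fold lower (adjusted p = 0.00220). Neat1, the RNA that builds paraspeckles, lay at 0.78 and -2.16 against 6.58 and 5.73, a log2 difference of -6.85 (SE 0.97, adjusted p = 0.0115), and Meg3, an imprinted RNA, at -1.75 and 0.71 against 4.87 and 4.38, a log2 difference of -5.15 (SE 1.04, adjusted p = 0.0282). For both the glioma arrays lay apart by over 2 log2 units, and with 1 array left out the adjusted p reached 0.0593 and 0.117.

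The position of the probes, in the mm9 build of the files, brought out one chromosome, which was then examined further after its value was seen. The median difference of the 746 tested genes of chromosome 19 was -0.49, while the medians of the other autosomes and the X chromosome lay between 0.05 (chromosome 9) and 0.40 (the X chromosome). Against the astrocyte mean it was -0.53 on glioma array 1 and -0.47 on array 2, so both glioma arrays showed it alike. Among its genes 23.6% were called lower and 4.56% higher, against 10.2% and 10.4% of all tested genes. Differences below 0 made up 67.4% of its genes and 42.1% of those elsewhere. All 7 bins of 10 Mb along it were negative, from -0.73 to -0.29. The shift was also seen without the called genes, where the median was -0.22 over 536 genes against 0.18 elsewhere, and among genes well above background on all 4 arrays, with -0.39 against 0.26. Across 11 other settings of normalisation, filter, probe choice and arrays, its median stood from 0.51 to 0.74 log2 units below that of the other chromosomes. One dense cluster on it, the Ms4a genes of myeloid cells, reached a median of -3.76 over 15 consecutive genes (chr19:10978169-11852097). DNA copy number was not measured, and the source of the shift was not tested.

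The 2 glioma arrays also differed from each other by chromosome. The median of glioma array 2 minus array 1 ran from -0.31 on chromosome 15 to 0.23 on chromosome 3, whereas the median of astrocyte array 2 minus array 1 stayed between -0.06 and 0.00447 on every chromosome. For chromosome 7, 9.36% of tested genes differed by at least 4-fold between the glioma arrays, the largest share of any chromosome, and on chromosome 14 9.04%. The other chromosomes had 3.23% to 6.02%. Between the astrocyte arrays the share on chromosome 7 was 4.24% and that on chromosome 14 7.05%, the largest of any chromosome there. With 1 array for each glioma sample these differences have no replicate.

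**Figure D3:**
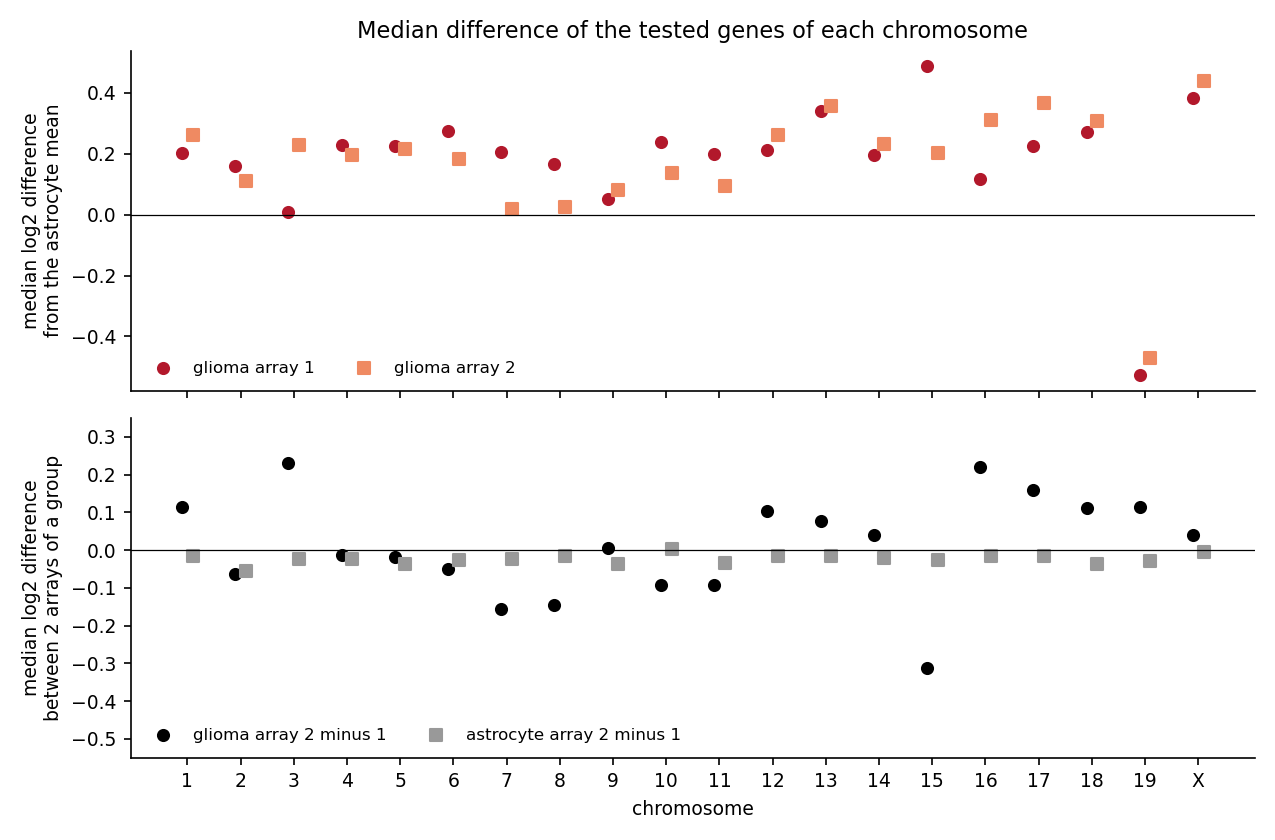
Median log2 difference of the tested genes of each chromosome. In the upper panel each glioma array is set against the mean of the 2 astrocyte arrays, and chromosome 19 alone lies below 0, at -0.53 and -0.47. In the lower panel the 2 arrays of a group are set against each other, and the glioma medians (black) spread from -0.31 to 0.23 while the astrocyte medians (grey) stay near 0.

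On chromosome 7 a run of neighbouring genes stood higher in both glioma samples. Haus5, a subunit of the augmin complex that nucleates spindle microtubules, lay at 6.49 and 6.18 on the glioma arrays and -0.08 and -0.01 on the astrocyte arrays, a log2 difference of 6.38 (SE 0.76, adjusted p = 0.00749). Arhgap33, a GTPase-activating protein of neurons, lay at 4.67 and 5.12 on the glioma arrays and -2.50 and -3.0 on the astrocyte arrays, a log2 difference of 7.64 (SE 0.35, adjusted p = 0.00226). These 2 were named as large differences, and their neighbours were then looked up, so the stretch was chosen after its values were seen and is given without a test, as are the other stretches below and the genes named in them. From Alkbh6 to Haus5 (chr7:31099185-31438911, mm9) 27 genes and transcripts were tested over 340 kb. Their median difference was 3.33 on glioma array 1 and 3.58 on array 2, 25 of 27 were above the astrocyte mean on each glioma array, and 20 were called higher, or 74.1% against 10.4% of all tested genes. The one called lower was Tyrobp, an adaptor of microglia, -7.25 (adjusted p = 0.0132). Some further genes of the run, of differing roles, are given as examples. Kmt2b, a histone H3 lysine 4 methyltransferase, lay at 5.67 and 6.13 on the glioma arrays and 1.49 and 1.74 on the astrocyte arrays, a log2 difference of 4.28 (SE 0.29, adjusted p = 0.00269). Psenen, a subunit of gamma-secretase, lay at 7.61 and 8.03 against 4.99 and 5.0, a log2 difference of 2.82 (SE 0.29, adjusted p = 0.00536), and Cox6b1, a subunit of cytochrome c oxidase, at 6.81 and 7.39 against 3.51 and 3.44, a log2 difference of 3.62 (SE 0.30, adjusted p = 0.00349). Lin37, of the MuvB complex that binds the CHR, lay at 5.12 and 5.39 against 1.14 and 1.59, a log2 difference of 3.88 (SE 0.30, adjusted p = 0.00317), Rbm42, an RNA-binding protein, at 8.18 and 8.32 against 4.76 and 4.87, a log2 difference of 3.44 (SE 0.25, adjusted p = 0.00289), and Sdhaf1, an assembly factor of succinate dehydrogenase, at 5.93 and 7.08 against 2.67 and 2.75, a log2 difference of 3.79 (SE 0.43, adjusted p = 0.00685). Of the 20 genes called higher, together with Tyrobp, 13 kept their call with each array left out. Under 11 other settings the median of the stretch ran from 2.95 to 3.59.

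On either side of this run, genes were high in glioma array 2 but not in array 1. From Zfp84 to Clip3 (chr7:30566378-31093201) 32 genes had a median difference of 0.21 on array 1 and 3.77 on array 2, and 31 of 32 were higher on array 2, 26 of them by at least 4-fold. From Atp4a to Gramd1a (chr7:31509268-31915205) 23 genes had medians of 0.25 and 3.09, and 21 were higher on array 2. Polr2i, a subunit of RNA polymerase II, lay at 4.79 and 8.45 on the glioma arrays and 4.25 and 4.06 on the astrocyte arrays. Wdr62, a spindle pole protein, lay at 2.07 and 5.96 against 0.38 and 0.17, Zfp260, a zinc finger factor, at 3.44 and 7.18 against 3.1 and 3.24, and Usf2, a helix-loop-helix factor, at 3.95 and 7.35 against 4.25 and 4.15. In each of these 4 genes array 2 exceeded array 1 by over 3 log2 units, and Polr2i, Zfp260 and Usf2 on array 1 lay near the astrocyte arrays. In these stretches 1 of 32 and 2 of 23 genes were called higher, or 3.1% and 8.7% against 10.4% of all tested genes. Fxyd1 in the latter was called lower. The 88 genes before Zfp84, from Coq8b, had medians of 0.36 and 0.11. After Gramd1a came an unnamed transcript, 0.87 and 3.90 above the astrocyte mean on glioma arrays 1 and 2, and Scgb2b2, a secretoglobin gene, at 0.62 and 6.31, so array 2 was high here too. Both stand outside the stretches as drawn, as does Gm4883 between Haus5 and Atp4a, at 0.80 and 0.56. The next 10, from Scgb1b3 to Gm6003, had medians of 0.49 and 0.08. In the 3 stretches the median difference between the astrocyte arrays was at most 0.0996 in size.

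**Figure D4:**
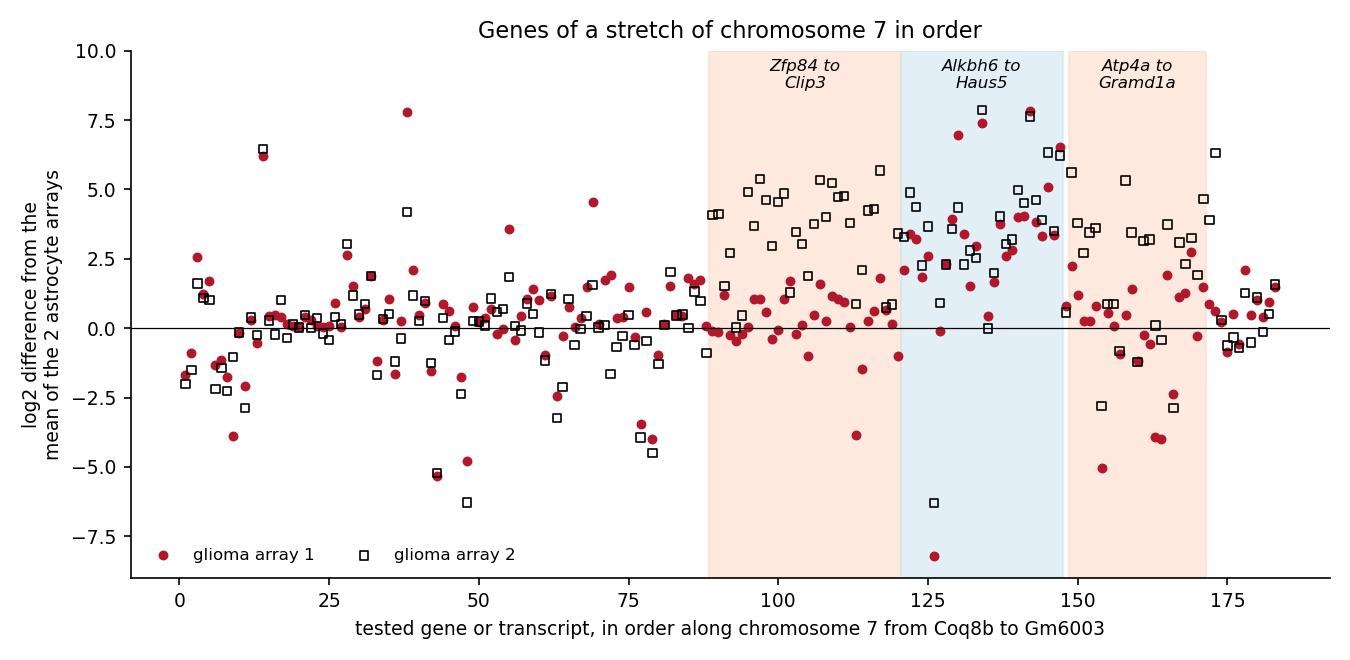
Difference of each glioma array from the mean of the 2 astrocyte arrays (log2) for 183 genes and transcripts in their order along chromosome 7. Red dots are glioma array 1 and open squares array 2. In the blue band both arrays lie high, with medians of 3.33 and 3.58. In the 2 orange bands the squares lie high (medians 3.77 and 3.09) and most dots lie around 0. The 2 squares just right of the last band, at 3.90 and 6.31, are high too.

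Chromosome 7 held further stretches in which the 2 glioma samples differed. From Chsy1 to Igf1r (chr7:73318609-75378520) 14 of 15 genes were higher on array 2, with a median difference of 1.5. Igf1r, the receptor of insulin-like growth factor 1, lay at 2.25 on glioma array 1 and 4.44 on array 2. From Tenm4 to Arrb1 (chr7:104057003-106755230) the direction was the other way. There 42 of 47 genes were higher on array 1, with a median of -1.62. Pak1, a kinase downstream of Rac, lay at 2.38 and 0.53, Emsy, a partner of BRCA2, at 6.47 and 4.08, and Arrb1, beta-arrestin 1, at 6.41 and 2.84 on glioma arrays 1 and 2. The astrocyte arrays lay at 4.01 and 3.68 for Emsy and at 2.07 and 2.25 for Arrb1, near glioma array 2. Over all windows of 15 consecutive genes, the largest median difference between the glioma arrays was 3.74, from Zfp82 to Clip3, next to the run that was high in both. The lowest glioma windows were -2.40 on chromosome 14 and -2.39 from Myo7a to Wnt11, inside the stretch from Tenm4 to Arrb1. Between the astrocyte arrays the most extreme windows were 1.97 and -2.32, and between the neural stem cell arrays 2.13 and -2.33. The lowest glioma windows were thus close in size to those of the normal pairs. The median of 1.5 from Chsy1 to Igf1r was smaller than the highest window of either normal pair. The windows were chosen for their size and were not tested, and whether DNA copy number differed was not measured.

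Other windows with large shifts against the astrocytes held gene families and non-coding transcripts. A run of 12 consecutive transcripts on chromosome 16 around the non-coding Gm16498 (chr16:40071830-40472412), none with a characterised gene name, had a median difference of 6.08. All 12 were higher on both glioma arrays than the astrocyte mean. Of these, 11 were called higher (91.7% against 10.4% of all tested genes) and 9 kept the call. Gm16498 itself lay at -2.44 and -1.70 on the glioma arrays and -7.03 and -7.74 on the astrocyte arrays. On chromosome 14 the window from Gm2897 to Gm3317 reached 3.56. The 27 transcripts of that region (chr14:3076832-7923271) belong in good part to families of near-identical copies, so a probe can bind several of them and they are not independent. Their values differed between the astrocyte arrays too, by a median of 1.45, and between the glioma arrays by 2.37. Among the lowest windows were the Ms4a cluster given above and the lectin receptor cluster of chromosome 6 from Clec4a3 to C1s2 (-3.44), both rich in genes of myeloid cells.

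Within the groups, 835 of 21641 genes well above background on both glioma arrays differed between them by at least 4-fold (3.86%), and 995 of 23146 between the astrocyte arrays (4.30%). The genes below were chosen after their values were seen, for the size of the difference between 2 arrays. Those far higher on glioma array 1 included many of cartilage-type matrix. Acan, aggrecan, lay at 4.56 on array 1 and -2.27 on array 2, Col2a1, type II collagen, at 3.25 and -2.11, and Matn4, a matrilin, at 5.08 and -1.42. Matn4 was also among the oligodendrocyte precursor markers above, so part of the gap between their 2 glioma means came from it. Col11a1, Col11a2 and Col9a3, collagen chains of the same tissue, were higher on array 1 by over 5 log2 units each. Higher on glioma array 2 were Ccnd2, a D-type cyclin, at -3.46 and 4.02 on arrays 1 and 2, the imprinted Mest at -3.34 and 3.57, and Hoxa7 at -1.25 and 3.98. None of these genes was called between glioma cells and astrocytes. On the astrocyte side the genes far higher on array 2 included those of fibroblasts, with Dcn at -0.98 and 6.52 and Col1a2 at -0.98 and 6.74 on arrays 1 and 2. Prm1, a sperm nuclear protein, lay at -2.81 and 8.31. Gria1, an AMPA receptor subunit, was higher on astrocyte array 1, at 3.05 and -1.31 on arrays 1 and 2. The 2 glioma samples and the 2 astrocyte samples were thus not alike within their groups in these genes.

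The ciliated cell genes gave a last group of falls. Of the 6 ependymal markers called lower, 2 kept their call. Foxj1, the master factor of motile cilia, lay at -3.09 and -1.59 on the glioma arrays and 4.16 and 3.58 on the astrocyte arrays, a log2 difference of -6.21 (SE 0.56, adjusted p = 0.00389). Rsph1, a radial spoke protein, lay at -4.26 and -5.16 on the glioma arrays and 3.38 and 2.61 on the astrocyte arrays, a log2 difference of -7.71 (SE 0.45, adjusted p = 0.00248), and Fam183b, also of motile cilia, at -3.70 and -2.91 on the glioma arrays and 5.11 and 4.38 on the astrocyte arrays, a log2 difference of -8.05 (SE 0.44, adjusted p = 0.00231). Both astrocyte arrays lay above both glioma arrays in all 3, and Rsph1 was well above background on 1 glioma array. Where a gene had a second probe at another position, the 2 probes were set against each other. Of 1464 such called genes 96.2% had a second probe with the same sign and 68.5% one called the same way, while over all 7354 tested genes with a second probe 80.2% agreed in sign. In 5 cases the second probe was called the opposite way: Arhgef18, Cd84, Mlxipl, Wdr31 and 1 unnamed transcript. For Cd84 the 2 probes gave 1.04 and -5.80, and no direction is given here for these genes.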

How the data were processed

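Total RNA of 9 mouse samples was hybridised to Agilent single-colour arrays with Cy3, per the labels. In the deposited files of the scanner, each spot has an intensity as processed by Agilent Feature Extraction 10.7.1.1, which subtracts background, and probe positions in mm9, per the file headers. The deposited value table holds log2 values of the same processed intensity with no scaling, since all of them lay within 0.01 of it, and its columns for these arrays had medians of 5.42, 5.14, 5.62 and 5.80. It served as an alternative.

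Control spots and flagged outlier spots were dropped, and repeated spots of a probe averaged. The log2 intensity was set relative to the 75th percentile of each array. A gene was tested if a probe was well above background on both arrays of at least 1 of the 2 groups, and its brightest such probe stood for it. Glioma cells, astrocytes and neural stem cells (2 arrays each) were fitted together with limma 3.58.1 in R 4.3.3 (lmFit, eBayes), with no covariates and two-sided Benjamini-Hochberg adjusted p-values over 24215 genes. The fit was tested on simulated data. Of 55669 probes, 27226 were named through RefSeq accessions, 3584 by symbol, 565 by synonym and 24294 by the file alone. Members and lists were chosen with earlier results of these data known. Named genes are those with the largest gap between groups, the largest bounds, at most 4 called genes in each list and direction by gap, and genes of the model. Other names were chosen after their values were seen. A few genes and 1 gene list are not reported here. Alternatives were background correction, normalization, filter, probe choice, variance prior, replicate block and leaving out each array.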

Additional observations from a re-analysis of the deposited data

How the results depend on the processing

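No called gene was called in the opposite direction under any of 18 other settings. Counts of calls ran from 3611, with only probes well above background on all 6 cell arrays, to 5411, with the mean of a gene's probes, outside the fits that left out a glioma or astrocyte array and the 4-fold threshold (3432). On the deposited values with no scaling between arrays 1237 genes were called higher, and 1439 were called lower with the stricter background filter. At least 4-fold higher were 1472. With 1 array left out the calls ran from 2073 to 5193, those higher from 795 to 2801 and those lower from 1212 to 2392, where the highest counts are without a neural stem cell array and the lone array left in a group is assumed to vary like the others. Leaving out a glioma or astrocyte array cost 112 to 121 of 279 named genes their call. A filter that also took the neural stem cell arrays, added after seeing the data, gave 4828 calls. Direction reversed for 2 named genes without a call in the other direction: Lif, called lower, with normexp background correction (0.00811) and Kdr, not called, with the mean of its probes (-2.33). The labels number the replicates in each group, but the deviations of same-numbered arrays correlated at -0.0038 between glioma cells and astrocytes, so the numbers were not taken as pairs. With a replicate block 4464 genes were called, 2120 higher and 2344 lower. Signal over background limits 358 rises and 817 falls to a bound.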

Other observations

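The lists below are set beside shares of 10.4% called higher and 10.2% called lower over all tested genes. Transporters and channels of astrocytes were lower in part, with 2 higher and 5 lower of 15 (13.3% and 33.3%, median -1.17). Slc14a1, the urea transporter, lay at -7.76 and -7.45 on the glioma arrays and 1.60 and -0.06 on the astrocyte arrays, and Aqp4, the water channel of astrocyte endfeet, at -2.84 and -3.12 on the glioma arrays and 6.18 and 4.4 on the astrocyte arrays. Slc7a10, a transporter of neutral amino acids, went the other way, at 0.45 and -1.70 on the glioma arrays and -5.79 and -8.03 on the astrocyte arrays. Glutamate and glutamine genes gave 3 higher and 1 lower of 15 (20% and 6.67%, median -0.68), with Slc1a1, the neuronal glutamate transporter, at 2.40 and 1.36 on the glioma arrays and -3.83 and -4.48 on the astrocyte arrays. Serine and one-carbon genes gave 2 higher and 1 lower of 19 (10.5% and 5.26%, median 0.75), and lipoprotein and sterol efflux genes 1 higher and 6 lower of 21 (4.76% and 28.6%, median -1.33). Junction genes gave 3 higher and 4 lower of 16 (18.8% and 25%, median -0.82), cadherins and catenins 1 higher and 0 lower of 15 (6.67% and 0%, median 0.15), and intermediate filament and S100 genes 1 higher and 5 lower of 20 (5% and 25%, median -1.52). Ina, alpha-internexin, the filament protein of early neurons, was the one called higher, at 2.05 and 2.23 on the glioma arrays and -1.79 and -1.79 on the astrocyte arrays. With 1 array left out the adjusted p reached 0.125 for Slc14a1, 0.0811 for Aqp4, 0.0974 for Slc7a10 and 0.120 for Slc1a1, while Ina kept its call.

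Vascular growth factor and neuropilin genes gave 0 higher and 4 lower of 15 (0% and 26.7%, median -3.37), with Thbs2, thrombospondin 2, at -7.58 and -7.34 on the glioma arrays and -1.13 and 3.01 on the astrocyte arrays and an adjusted p of up to 0.0642 with 1 array left out. Fibroblast growth factor genes gave 1 higher and 4 lower of 16 (6.25% and 25%, median -0.84), where Fgf18 kept its call, at -1.73 and -2.11 on the glioma arrays and 1.13 and 0.48 on the astrocyte arrays. JAK-STAT genes gave 0 higher and 6 lower of 19 (0% and 31.6%, median -0.93) and apoptosis regulators 0 higher and 5 lower of 21 (0% and 23.8%, median -0.65). Cell cycle inhibitor and senescence genes were split, with 3 higher and 2 lower of 17 (17.6% and 11.8%, median -0.98). Lmnb1, in the list for senescence, was among those higher and Igfbp7 among those lower. Phosphodiesterase and G protein genes gave 3 higher and 3 lower of 24 (12.5% and 12.5%, median 0.93), with both shares near those of all tested genes, zinc finger and NFI genes 1 higher and 4 lower of 18 (5.56% and 22.2%, median -1.05), and telomere genes 3 higher and 0 lower of 15 (20% and 0%, median 0.62). Of 3 endothelial markers tested none was called. Slc14a1 and Thbs2 were not well above background on either glioma array and Slc7a10 on neither astrocyte array, so their folds are bounds: Slc14a1 was at least 66.4-fold lower, Thbs2 at least 74.9-fold lower and Slc7a10 at least 34.0-fold higher.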
